A study of Mus musculus with 28 samples.

Results

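The genes described here are 10 components of bone morphogenetic protein (BMP) signalling in cells sorted from mouse small intestine: the receptors Bmpr1a and Bmpr2, the SMAD genes Smad1, Smad5, Smad4, Smad6 and Smad7, and the target genes Id1, Id2 and Id3. They were taken from a list of pathway symbols, put together with earlier results of these data known, and all 10 were found among the 54354 genes of the deposited count table. The 28 RNA-seq libraries came from mice of the genotype Lgr5-GFP, a reporter that marks cells with an active Lgr5 gene, the classical marker of crypt base stem cells. The 4 groups of 7 libraries each were Lgr5-high cells of mice on a cystine diet, Lgr5-high cells of mice on control diet, Lgr5-low cells of mice on a cystine diet and Lgr5-low cells of mice on control diet. All groups share the reporter genotype. The sources used here do not give the amount of cystine, the time on the diet, or the age, sex and background strain of the mice. The series title concerns dietary cysteine and intestinal stemness.

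BMP ligands bind paired type I and type II receptors. The activated type I receptor phosphorylates the receptor-activated SMADs, which join the common partner SMAD4 and enter the nucleus. The Id genes are among the best known direct targets, and their proteins bind and block basic helix-loop-helix transcription factors. In the intestine, BMP activity is low at the crypt base, where antagonists from the surrounding mesenchyme act, and higher towards the villus, where it favours differentiation and restrains stem cell self-renewal. SMAD6 and SMAD7 are inhibitors that the pathway itself induces.

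Among the 10 genes, Id3 fell in Lgr5-high cells relative to Lgr5-low cells when both diets were averaged, and no other member passed the test in any comparison. That is 1 of 9 members tested, near the 8.8% of all genes that passed in the same comparison. Id2 did not follow Id3. Its mean was highest in Lgr5-high cells on the cystine diet, the group in which the mean of Id3 was lowest. Neither gene passed the test for an effect of diet.

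Depth ran from 2.75 to 21.5 M (mega) counts per library, and 7 libraries held under 5 M. Lgr5-high libraries on cystine held 6.84 ± 4.40 M counts and those on control diet 14.8 ± 5.80 M (SD, n = 7 each; two-sided exact permutation p = 0.0227), so low members of Lgr5-high cells rested on fewer counts on cystine. In Lgr5-low cells the depth was 4.11 to 21.5 M on cystine, mean 13.6 M, and 3.09 to 18.9 M on control diet, mean 8.53 M (n = 7 each; exact permutation p = 0.150), so on cystine the Lgr5-high libraries were also shallower than the Lgr5-low ones (exact permutation p = 0.0513). Levels are given as CPM, the count of a gene scaled to a common library total after adjustment by the TMM (trimmed mean of M-values) factor of each library. The sort label was checked with Lgr5 itself. Lgr5 ran from 16.2 to 45.1 CPM in Lgr5-high libraries and from 0.214 to 10.9 CPM in Lgr5-low libraries, with no overlap. The 10 members together made up between 0.00927% and 0.0226% of the counts of a library.

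Levels of different members are compared per kilobase of annotated exon, as the mean CPM per kilobase over the 28 libraries. Id2 was the highest at 11.8, followed by Id1 at 8.91 and Id3 at 7.277. Smad4 stood at 4.55 and Smad1 at 4.35, above the type I receptor gene Bmpr1a at 2.96 and Smad5 at 1.69. The inhibitory SMAD genes and the type II receptor gene were the lowest, with Smad7 at 0.389, Bmpr2 at 0.362 and Smad6 at 0.131. The place of Bmpr2 rests on its 17983 bases of exon, against 4521 for Smad7. Before division by length its mean was 6.51 CPM, against 1.76 CPM for Smad7. These lengths take all annotated exons, not the transcript expressed. The inhibitory SMAD genes rested on few counts, and the Id genes on more.

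**Figure D1:**
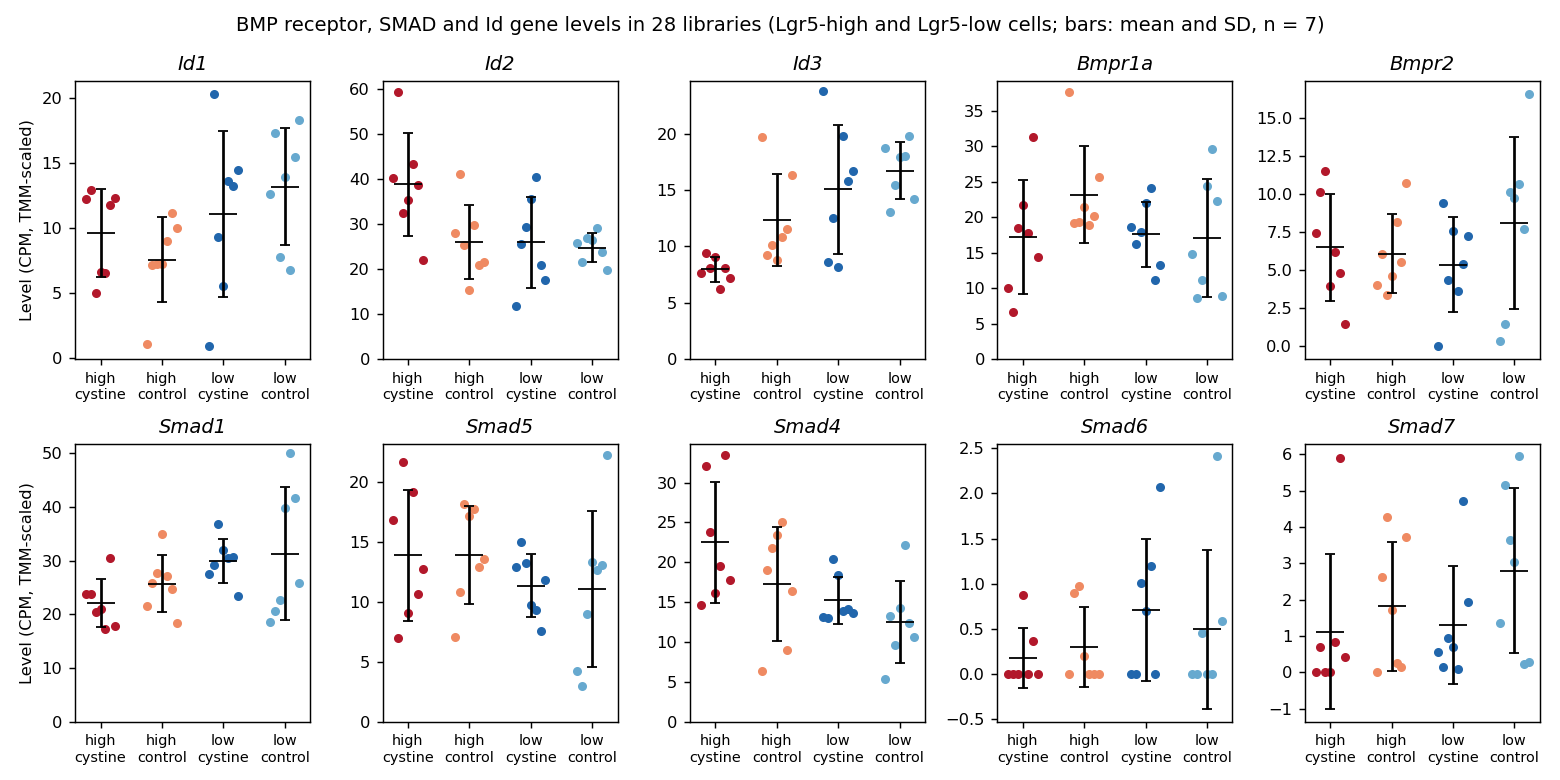
Level of each of the 10 genes in CPM (vertical axis, one panel per gene, each with its own scale) in the 4 groups; each point is 1 library and the bar gives the mean and SD of 7. Id3 was lowest in Lgr5-high cells on cystine, between 6.18 and 9.42 CPM, and the ranges of the Lgr5-high and Lgr5-low groups overlapped for every gene on both diets.

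Id3 and Id2 are the targets on which the comparisons turn. Id3 lies on chromosome 4 at 136143497 to 136145755 on the plus strand, and Id2 on chromosome 12 at 25093799 to 25097140 on the minus strand (GRCm38). Their promoters, from 250 bases before to 50 bases after the RefSeq transcription start (build GRCm38.p6), are shown because the levels of these targets are read against each other below. Capitals mark the SMAD-box letters GTCTG, or CAGAC on the other strand, and the palindrome GGCGCC, a GC-rich element described for SMAD1 and SMAD5. The motifs do not overlap in these windows.
Id3, chr4:136143572-136143871, plus strand: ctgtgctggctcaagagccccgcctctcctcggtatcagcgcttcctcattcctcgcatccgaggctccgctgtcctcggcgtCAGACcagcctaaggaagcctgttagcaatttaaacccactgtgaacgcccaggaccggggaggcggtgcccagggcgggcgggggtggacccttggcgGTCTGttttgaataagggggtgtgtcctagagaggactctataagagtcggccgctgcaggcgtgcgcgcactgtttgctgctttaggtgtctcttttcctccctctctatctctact
Id2, chr12:25096043-25096342, minus strand: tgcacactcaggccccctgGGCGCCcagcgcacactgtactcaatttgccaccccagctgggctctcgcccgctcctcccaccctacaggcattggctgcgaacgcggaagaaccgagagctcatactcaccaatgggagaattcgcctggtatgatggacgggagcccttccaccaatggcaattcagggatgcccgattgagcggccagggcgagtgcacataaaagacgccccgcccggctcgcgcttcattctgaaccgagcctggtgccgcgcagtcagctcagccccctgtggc
The Id3 window held 2 matches to GTCTG in either orientation and 0 to GGCGCC, and the Id2 window held 0 and 1. Of 32851 RefSeq promoters of the same length, 49.6% held GTCTG at least once in either orientation and 11.9% held GGCGCC. Windows of Bmpr1a, Bmpr2 and Smad5 held GGCGCC as well. The matches only describe the windows. RefSeq promoters were matched for 7 of the 10 members.

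Id3 encodes an inhibitor of helix-loop-helix factors and is a direct SMAD target. In Lgr5-high cells on cystine its lowest, median and highest levels were 6.18, 8.09 and 9.42 CPM, and in Lgr5-high cells on control diet 8.80, 10.8 and 19.7 CPM. In Lgr5-low cells on cystine they were 8.20, 15.8 and 23.8 CPM, and in Lgr5-low cells on control diet 13.1, 17.9 and 19.8 CPM. Of the 14 Lgr5-high libraries, 12 lay below the median of the 14 Lgr5-low libraries, although the ranges overlapped on each diet. On cystine, 5 of 7 Lgr5-high libraries lay below every Lgr5-low library, and on control diet 5 of 7 did.

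Averaged over diets, Id3 was at 10.2 ± 3.68 CPM in Lgr5-high cells and 15.9 ± 4.34 CPM in Lgr5-low cells (SD, n = 14 each). Its log2 fold change was -0.68 ± 0.19 (SE; 95% confidence interval -1.07 to -0.29), which is 0.623 of the Lgr5-low level, with an adjusted p of 0.0188 in edgeR's quasi-likelihood test with Benjamini-Hochberg adjustment over 12495 genes. It was the single member of the 9 tested that passed the threshold of 0.05 in this comparison. Of all genes tested, 8.8% passed in either direction and 5.05% were lower in Lgr5-high cells, so 1 of 9 is near the background. It passed in 35 of 36 alternative settings. Of these settings, 28 left out 1 library each and so shared nearly all their data with the main fit. The highest adjusted p among the settings that passed was 0.0463, in edgeR with a replicate block. It was lost in the 10 libraries with Xist, the RNA of the silenced X chromosome, at or under 50 CPM, where the log2 fold change was -0.62 with an adjusted p of 0.561.

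Within single diets Id3 was not called. On cystine its log2 fold change between Lgr5-high and Lgr5-low cells was -0.92 ± 0.27 (95% confidence interval -1.47 to -0.36; edgeR adjusted p = 0.0600). This value passed with DESeq2, with an adjusted p of 0.0245. Of 14 edgeR fits that left out 1 library, 2 passed, those without Lgr5-low cystine replicate 2 or 4, with adjusted p of 0.0424 and 0.0399. Those 2 libraries held the lowest Id3 levels of their group, 8.63 and 8.20 CPM. The remaining fits had edgeR adjusted p up to 0.119. On control diet the log2 fold change was -0.45 ± 0.27 (95% confidence interval -0.99 to 0.10; edgeR adjusted p = 0.524).

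Id1, another direct BMP target of the Id family, is on chromosome 2 at 152736251 to 152737410. Its lowest, median and highest levels were 4.96, 11.8 and 12.9 CPM in Lgr5-high cells on cystine and 1.01, 7.20 and 11.2 CPM in Lgr5-high cells on control diet. They were 0.861, 13.2 and 20.3 CPM in Lgr5-low cells on cystine and 6.72, 13.9 and 18.3 CPM in Lgr5-low cells on control diet. All 14 Lgr5-high libraries lay below the Lgr5-low median, yet Lgr5-low libraries reached down into their range. Id1 did not pass the test: the log2 fold change averaged over diets was -0.50 (95% confidence interval -1.10 to 0.10; edgeR adjusted p = 0.329). Low counts touch this gene, since 1 Lgr5-high control library held 4 counts and 1 Lgr5-low cystine library held 3.

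Id2, also an Id target, shared neither the order of Id3 nor that of Id1. Its lowest, median and highest levels were 22.0, 38.6 and 59.3 CPM in Lgr5-high cells on cystine and 15.4, 25.3 and 40.9 CPM in Lgr5-high cells on control diet. In Lgr5-low cells they were 11.8, 25.5 and 40.3 CPM on cystine and 19.8, 25.8 and 29.0 CPM on control diet. The Lgr5-high cystine libraries were high, with 6 of 7 above the median of each of the Lgr5-high control and Lgr5-low cystine groups, and all ranges overlapped. Averaged over diets, the log2 fold change of Lgr5-high against Lgr5-low cells was 0.32 (95% confidence interval -0.02 to 0.66; edgeR adjusted p = 0.258). On cystine alone it was 0.57 (95% confidence interval 0.09 to 1.06; edgeR adjusted p = 0.215), and on control diet 0.07 (95% confidence interval -0.42 to 0.55; edgeR adjusted p = 0.954).

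Since Id2 and Id3 are read in the same library, their counts were also set against each other, a ratio chosen after the values were seen and therefore given without a test. Id2 had a median of 4.77 counts per Id3 count in Lgr5-high cells on cystine, with a range of 3.06 to 7, and 1.81 in Lgr5-high cells on control diet, with a range of 1.32 to 4.43. In Lgr5-low cells the median was 2.04 on cystine, with a range of 0.494 to 4.34, and 1.47 on control diet, with a range of 1.2 to 1.74. The Lgr5-high cystine libraries had the highest ratios, and their range overlapped those of the Lgr5-high control and Lgr5-low cystine libraries.

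**Figure D2:**
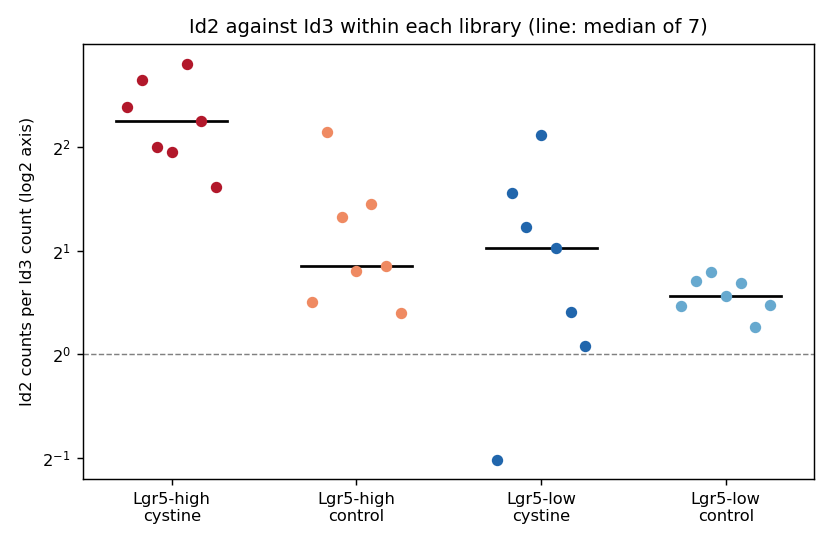
Id2 counts divided by Id3 counts within each library (log2 vertical axis) in the 4 groups, with a line at the median of 7 libraries and a dashed line at equal counts. The 7 libraries of Lgr5-high cells on cystine lie between 3.06 and 7, and the 7 libraries of Lgr5-low cells on control diet lie between 1.2 and 1.74.

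Bmpr1a, the type I receptor through which BMP ligands act on the intestinal epithelium, is on chromosome 14 at 34410734 to 34503341. It averaged 17.2 ± 8.07 CPM in Lgr5-high cells on cystine, 23.2 ± 6.80 CPM in Lgr5-high cells on control diet, 17.6 ± 4.57 CPM in Lgr5-low cells on cystine and 17.1 ± 8.32 CPM in Lgr5-low cells on control diet (SD, n = 7 each). The groups overlapped widely, and the log2 fold change of Lgr5-high against Lgr5-low cells averaged over diets was 0.19 (95% confidence interval -0.24 to 0.62; edgeR adjusted p = 0.665). Bmpr2, the type II receptor, is on chromosome 1 at 59763400 to 59879014. It ran from 1.48 to 11.5 CPM in Lgr5-high cells on cystine and from 3.37 to 10.7 CPM in Lgr5-high cells on control diet, against 0 to 9.37 CPM in Lgr5-low cells on cystine and 0.337 to 16.6 CPM in Lgr5-low cells on control diet. Its log2 fold change averaged over diets was -0.07 (95% confidence interval -0.88 to 0.73; edgeR adjusted p = 0.949), an interval wide enough to hold a change in either direction.

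Smad1 and Smad5, the BMP-specific receptor-activated SMADs, had population differences of opposite sign, and neither passed the test over all libraries. Smad1 averaged 23.9 ± 5.07 CPM in Lgr5-high cells and 30.6 ± 8.86 CPM in Lgr5-low cells (SD, n = 14 each), and 12 of its 14 Lgr5-high values fell under the Lgr5-low median. Its log2 fold change was -0.37 (95% confidence interval -0.68 to -0.06), with an unadjusted p of 0.0219 and an adjusted p of 0.135 in edgeR. In this comparison, averaged over diets, 3 of 9 members and 2816 of 12495 genes had an unadjusted p under 0.05. Smad5 averaged 13.9 ± 4.63 CPM in Lgr5-high cells and 11.2 ± 4.74 CPM in Lgr5-low cells, and its log2 fold change was 0.32 (95% confidence interval -0.16 to 0.80; edgeR adjusted p = 0.470). The spread of Smad1 was widest in Lgr5-low cells on control diet, where the libraries ran from 18.5 to 50.1 CPM. In that group the 4 libraries with Xist above 50 CPM held 25.7 to 50.1 CPM and the 3 others 18.5 to 22.7 CPM. In the other groups the 2 classes overlapped. Libraries above 50 CPM held 18.3 to 35.0 CPM in Lgr5-high control and the rest 21.5 to 27.7 CPM. In Lgr5-low cystine these ranges were 23.5 to 36.8 and 27.5 to 29.1 CPM, and in Lgr5-high cystine 17.3 to 30.5 and 23.68 to 23.71 CPM. In the libraries with Xist above 50 CPM alone, Smad1 passed, with a log2 fold change averaged over diets of -0.56 (edgeR adjusted p = 0.0232). That split was chosen after seeing the data, and 1616 of 13761 genes were called in it.

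Smad4, the partner that the BMP and TGF-beta branches share, had means of 22.5 ± 7.60 CPM in Lgr5-high cells on cystine and 17.3 ± 7.21 CPM in Lgr5-high cells on control diet, against 15.2 ± 2.94 CPM in Lgr5-low cells on cystine and 12.5 ± 5.15 CPM in Lgr5-low cells on control diet (SD, n = 7 each). Of 14 Lgr5-high libraries, 2 lay below the Lgr5-low median. Averaged over diets the log2 fold change was 0.50 (95% confidence interval 0.08 to 0.93), with an unadjusted p of 0.0198 and an adjusted p of 0.128 in edgeR, so it did not pass. Over all genes, 2816 of 12495 had an unadjusted p under 0.05 in this comparison.

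The inhibitory SMADs were near the limit of detection. Smad6 was not tested because its counts were too low. It had 8 counts in all over the 7 Lgr5-high libraries on cystine, 29 over those on control diet, 88 over the Lgr5-low libraries on cystine and 36 over those on control diet. It was at 0 in 5 of 7 Lgr5-high cystine, 4 of 7 Lgr5-high control, 3 of 7 Lgr5-low cystine and 4 of 7 Lgr5-low control libraries, so no difference could be shown at this depth. Smad7 reached 5.89 CPM in Lgr5-high cells on cystine, 4.27 CPM in Lgr5-high cells on control diet, 4.70 CPM in Lgr5-low cells on cystine and 5.94 CPM in Lgr5-low cells on control diet. It was at 0 in 3 of 7 Lgr5-high cystine libraries and 1 of 7 Lgr5-high control libraries, and in 0 of the 14 Lgr5-low libraries. The lowest Lgr5-low library held 1 count on each diet, so the libraries at 0 do not separate the populations. The log2 fold change of Smad7 averaged over diets was -0.48 (95% confidence interval -1.98 to 1.03; edgeR adjusted p = 0.781).

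**Figure D3:**
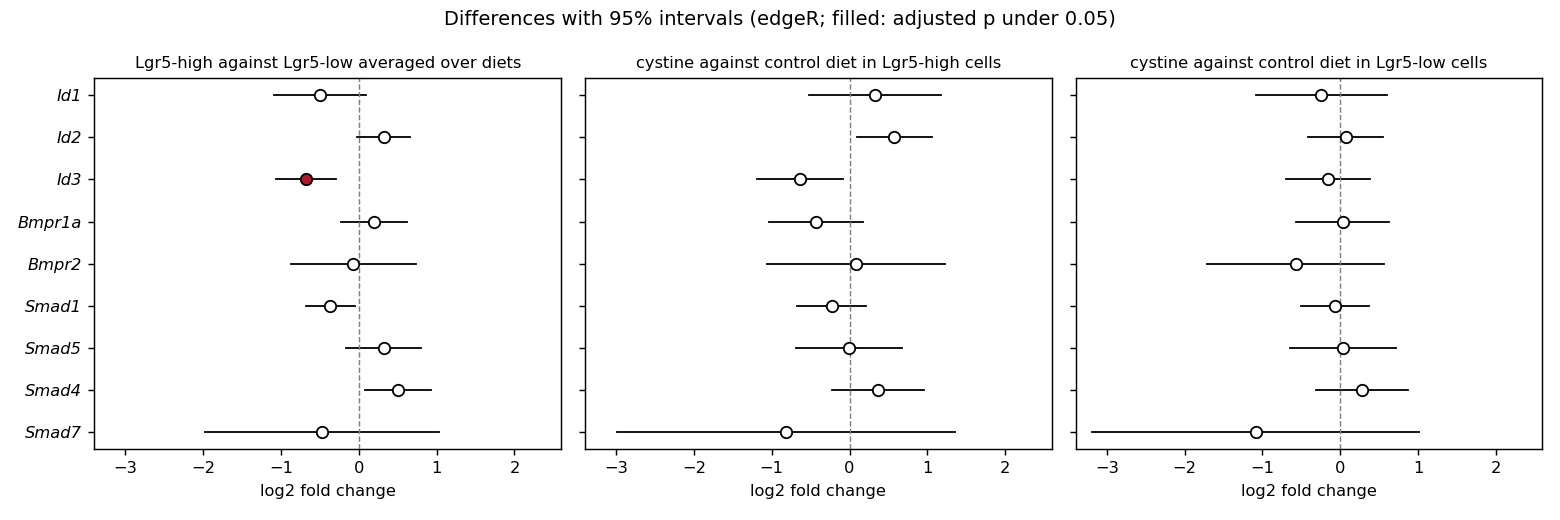
Log2 fold changes with 95% confidence intervals (horizontal axis) of the 9 tested members, in 3 panels for Lgr5-high against Lgr5-low cells averaged over diets, cystine against control diet in Lgr5-high cells and the same in Lgr5-low cells; filled points passed the edgeR test. The interval of Id3 averaged over diets runs from -1.07 to -0.29, and Smad7 has the widest intervals.

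Over all 9 tested members, the median log2 fold change of Lgr5-high against Lgr5-low cells averaged over diets was -0.07, beside -0.02 for all 12495 genes. On cystine 0 of 9 members passed in edgeR, beside 2.64% of all genes. At an unadjusted p under 0.05 there were 3 members, beside 15.5% of all genes, and DESeq2 called 1, beside 4.6%. On control diet 0 of 9 passed in edgeR, beside 1.8% of all genes. There 0 members had an unadjusted p under 0.05, beside 12.9% of all genes, and DESeq2 called 0, beside 3.281%.

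The diet comparisons asked whether these genes differed between cystine and control diet within each population. In Lgr5-high cells 0 of 9 members passed in edgeR, beside 0.168% of all genes, and 0 in DESeq2, beside 0.712%. At an unadjusted p under 0.05 there were 2 members, beside 4.282% of all genes. Id2 had a log2 fold change of cystine against control diet of 0.58 (95% confidence interval 0.09 to 1.06; unadjusted p = 0.0211, edgeR adjusted p = 0.955). Id3 had a log2 fold change of -0.63 (95% confidence interval -1.19 to -0.08; unadjusted p = 0.0265), and its adjusted p in edgeR was 1.0. All 7 cystine libraries lay below the control median of Id3, and 5 lay below every control library. Id1 had a log2 fold change of 0.33 (95% confidence interval -0.51 to 1.18) and Bmpr1a of -0.43 (95% confidence interval -1.04 to 0.18).

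In Lgr5-low cells 0 of 9 members passed for diet in edgeR, beside 0% of all genes, and 0 in DESeq2, beside 0.032%. None of the 9 had an unadjusted p under 0.05, beside 2.97% of all genes. Id3 had a log2 fold change of -0.16 (95% confidence interval -0.70 to 0.38) and Id2 of 0.07 (95% confidence interval -0.41 to 0.55). The difference between the diet effects of the populations, tested as an interaction, called 0 members in edgeR and in DESeq2, beside 0% of all genes in each, with 0 members at an unadjusted p under 0.05, beside 3.32%. For Id2 that difference, Lgr5-high minus Lgr5-low, was 0.51 (95% confidence interval -0.18 to 1.19), and for Id3 it was -0.47 (95% confidence interval -1.24 to 0.30), so the Lgr5-high diet values are not shown to be particular to Lgr5-high cells. With populations averaged, the diet comparison called 0 of 9 members in edgeR, beside 0.16% of all genes, and 0 in DESeq2, beside 0.664%. At an unadjusted p under 0.05 there was 1 member, Id3 at -0.40, beside 4.21% of all genes. The fibroblast and smooth muscle marker sum stayed at or under 9.47 CPM in every library. The macrophage marker sum, over 8 genes of which 5 rose on cystine in Lgr5-high cells, had a median of 221 CPM in Lgr5-high cystine libraries (6.17 to 400 CPM) and 28.05 CPM in Lgr5-high control libraries (16.9 to 35.8 CPM); its part in the Id2 and Id3 values was not tested.

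Lgr5-high and Lgr5-low libraries also differed in their marked cell types. The intestinal stem cell marker sum, over 8 genes with Lgr5 among them, was 3502 to 7612 CPM in Lgr5-high libraries. It was 721 to 2758 CPM in Lgr5-low libraries, without overlap. The goblet marker sum was 6989 to 19577 CPM in Lgr5-high libraries and 17286 to 54162 CPM in Lgr5-low libraries. The enteroendocrine sum was 67.3 to 235 CPM in Lgr5-high libraries and 298 to 896 CPM in Lgr5-low libraries, without overlap. The endothelial sum was 62.8 to 135 CPM in Lgr5-high libraries and 126 to 314 CPM in Lgr5-low libraries, nearly all of it Pecam1, while the defining markers Cdh5 and Kdr averaged under 2 CPM in each group. Averaged over diets, 8 of 8 goblet, 7 of 8 enteroendocrine, 2 of 8 enterocyte and 2 of 6 tuft markers fell in Lgr5-high cells. Of all genes, 5.05% fell. Of the macrophage markers 7 of 8 rose averaged over diets, with a median log2 fold change of 1.81, beside 8.8% of all genes called in either direction. On cystine 6 of 8 rose (median 2.49), beside 2.64% of all genes called. On control diet 0 of 8 passed (median 0.78), beside 1.8%. The Paneth marker sum was 20068 to 159466 CPM in Lgr5-high libraries and 14956 to 96358 CPM in Lgr5-low libraries. It varied widely between libraries of the same population, and 0 of its 6 markers passed. Of the T cell markers 0 of 6 tested passed averaged over diets. For cystine against control diet in Lgr5-high cells 0 of 6 passed too, with a median log2 fold change of 1.16. The mitochondrial share of counts was 15.3% to 25.5% in Lgr5-high libraries and 14.2% to 19.2% in Lgr5-low libraries, and 8 of 14 Lgr5-high libraries lay above every Lgr5-low library. The part of these cell types and of the mitochondrial share in the Id3 difference was not tested, and in bulk libraries fewer cells of a type cannot be told apart from less RNA per cell.

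The wider BMP and TGF-beta pathway was read from 75 other genes, of which 37 could be tested. In Lgr5-high against Lgr5-low cells averaged over diets, 3 of 37 rose and 1 fell, with 8.8% of all genes called and a median log2 fold change of 0.06 over the 37. Rgmb, a co-receptor that enhances BMP signalling, was at 48.9 to 79.2 CPM in Lgr5-high cells on cystine and 36.6 to 75.9 CPM in Lgr5-high cells on control diet. It was at 9.07 to 26.4 CPM in Lgr5-low cells on cystine and 11.1 to 37.1 CPM in Lgr5-low cells on control diet. On cystine the populations did not overlap, and averaged over diets the log2 fold change was 1.42 ± 0.16 (SE; edgeR adjusted p = 2.26e-07).

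Tgif1, a repressor of SMAD-driven transcription, rose by 0.95 ± 0.17 on the log2 scale (SE; edgeR adjusted p = 0.000307). Hes1, a helix-loop-helix repressor downstream of Notch and here an Id partner, rose by 0.78 ± 0.19 (SE; edgeR adjusted p = 0.00465). Id4, the remaining Id family member, fell, with an edgeR adjusted p of 0.0241, and held 2 counts over the 7 Lgr5-high cystine libraries and 36 over the Lgr5-high control libraries, against 196 over the Lgr5-low cystine and 97 over the Lgr5-low control libraries. This call was lost when Lgr5-low control replicate 4 was left out (edgeR adjusted p = 0.0622), with a replicate block (0.130), without the libraries under 5 M counts (0.113) and in the libraries with Xist above 50 CPM (0.0815). Ligands, antagonists and the other receptors in the list held no gene that passed; 6 of 21 ligands, 2 of 13 antagonists and 10 of 16 receptors and co-receptors could be tested.

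**Figure D4:**
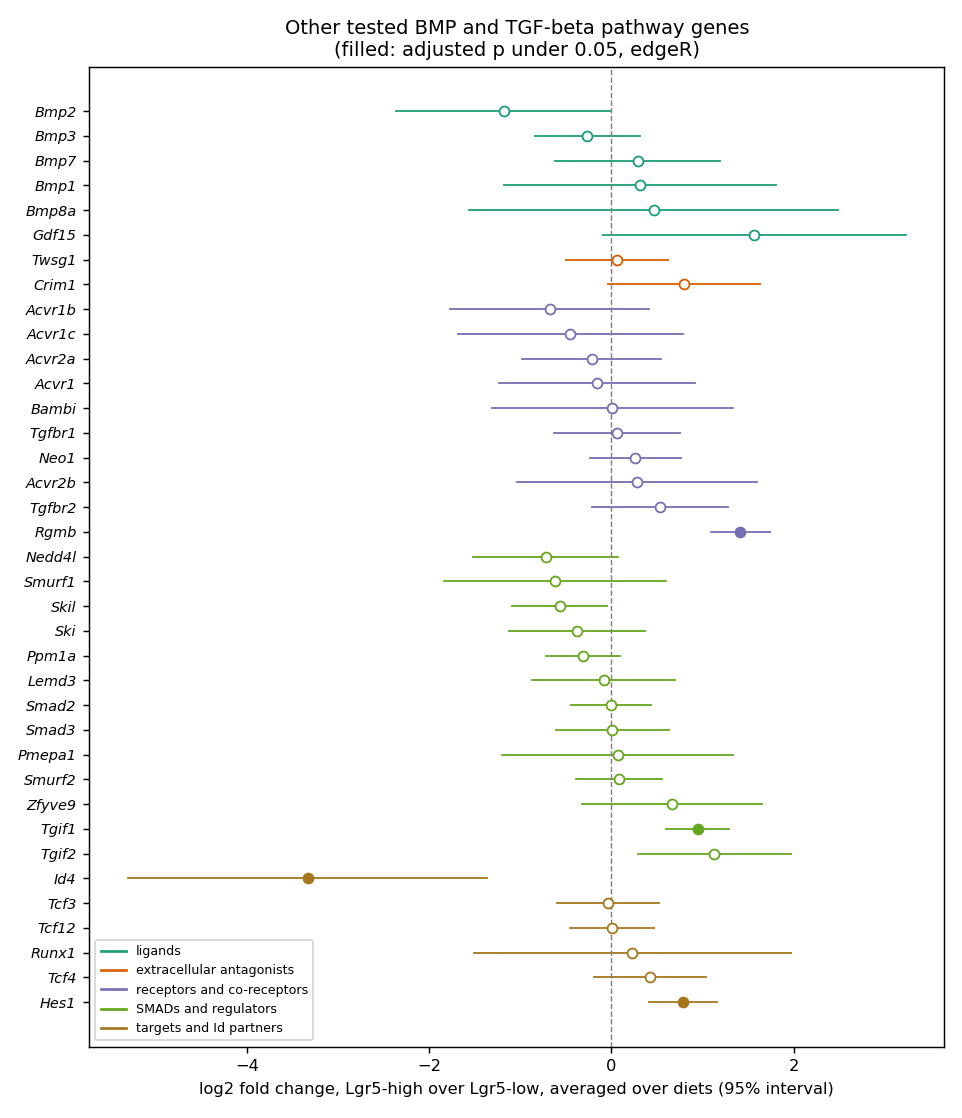
Log2 fold changes of Lgr5-high against Lgr5-low cells averaged over diets (horizontal axis) with 95% confidence intervals for the 37 tested pathway genes, coloured by role; filled points passed the edgeR test. Rgmb at 1.42, Tgif1 at 0.95 and Hes1 at 0.78 lie to the right of 0, and Id4, whose fitted value rests on few counts, to the left.

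On control diet 2 of the 37 pathway genes rose in Lgr5-high cells, Rgmb by 1.14 and Hes1 by 1.09 on the log2 scale (edgeR adjusted p = 0.00367 and 0.0204), beside 1.8% of all genes called. The Hes1 call was lost without any 1 of Lgr5-high control replicates 1, 2 and 3 and Lgr5-low control replicates 5, 6 and 7, with edgeR adjusted p up to 0.0639, and without the libraries under 5 M counts, with 0.119. On cystine 2 rose, Rgmb by 1.69 and Tgif1 by 1.03 (edgeR adjusted p = 2.43e-05 and 0.0144), beside 2.64% of all genes called. No pathway gene passed in edgeR for diet in either population, with populations averaged, or for the difference of the diet effects. The 3 lowest unadjusted p-values in Lgr5-high cells belonged to Hes1, Smad3 and Id4, where Hes1 had a log2 fold change of -0.52 (unadjusted p = 0.0559) and Smad3, a TGF-beta SMAD, of -0.82 (unadjusted p = 0.0681). In Lgr5-low cells they belonged to the activin receptor gene Acvr2b at -2.22, Lemd3, which encodes a nuclear membrane protein that binds SMADs, at -1.13, and Rgmb at -0.42. With populations averaged they belonged to Acvr2b, the ligand Bmp8a and the phosphatase Ppm1a, and for the difference of the diet effects to Lemd3, Rgmb and Runx1. The edgeR adjusted p of each was 1.0.

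By the level pattern over the 28 libraries, the genes most like Id3 were Galnt6, Copa and Ugt1a7c, with root-mean-square differences of centred log2 CPM of 0.342, 0.385 and 0.389, against a median of 0.861 over 9567 candidates. Those most like Id2 were Ywhaq, Tra2b and Ddx52, at 0.350, 0.373 and 0.390, against a median of 0.849. Those most like Id1 were Cdc25b, Gfm1 and Kat14, at 0.489, 0.592 and 0.598, against a median of 1.11. This measure rewards genes of little spread and says nothing of shared function or control. In the order of group means, 2 of 30 neighbouring gaps exceeded the larger SD of the pair, those of Id2 and Id3 between Lgr5-high cells on cystine and on control diet.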

How the data were processed

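Estimated counts per gene for all 28 libraries were deposited by the authors in 1 table of whole numbers from Salmon 1.3.0 with the mouse build mm10, per the submitters' processing notes. The annotation used is not given in the sources used here. Libraries were poly(A)-selected and directional, per the labels' protocols, which name organoids as the RNA source while tissue and design text name small intestine. Groups came from the labels. Whether replicates are separate animals is not stated there, so each p reflects only how these libraries vary, which may be technical. No pair of libraries within a group agreed within sampling noise.

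The deposited counts were normalized by TMM and fitted in edgeR 4.0.16 (R 4.3.3) as 1 model of 4 group means over 28 libraries, after filterByExpr kept 12495 genes, with robust quasi-likelihood tests and Benjamini-Hochberg adjustment over all of them at 0.05. CPM is counts over total times TMM factor. Standard errors are the log2 fold change over the root of F. The test was tried on simulated counts drawn with a single spread shared by all genes and no replicate or sex structure. That trial cannot show how the test behaves on these libraries. Alternatives were RLE factors, DESeq2 1.42.0, no filter, only the groups compared, a replicate block, a sex term from Xist, and leaving out libraries. Exon lengths and gene positions came from GENCODE on GRCm38. All 10 members are reported. Other pathway genes are named where they passed, or by the 3 lowest p-values where none did; likeness used log2(CPM + 0.5) over genes of mean at least 2 CPM. The members and lists were chosen with earlier results of these data known.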

Additional observations from a re-analysis of the deposited data

Results flagged for a closer look

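In each group of 7 libraries the gap between the highest or the lowest library and its nearest neighbour was set against the group's range with Dixon's 95% limit. Of 64 combinations of gene and group, 8 passed that limit, where chance flags about 1 in 20.

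Lgr5-high control replicate 1 stood apart for Id1, at 1.01 CPM with the next library at 7.14 CPM, and for Bmpr1a, at 37.6 CPM with the next at 25.7 CPM. Lgr5-high control replicate 4 was high for Tgif1, at 68.2 CPM with the next at 43.4 CPM.

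The other flags fell on low counts. Smad6 was at 0.871 CPM in Lgr5-high cystine replicate 4 and at 2.41 CPM in Lgr5-low control replicate 6, each above the rest of its group. Smad7 was at 5.89 CPM in Lgr5-high cystine replicate 6 and at 4.70 CPM in Lgr5-low cystine replicate 6. Id4 was at 0.242 CPM in Lgr5-high cystine replicate 5, with the other 6 libraries of that group at 0.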

How the results depend on the processing

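Id3 in Lgr5-high against Lgr5-low cells averaged over diets had log2 fold changes between -0.77 and -0.62 over 36 settings. Leaving out each library in turn gave -0.76 to -0.62 with adjusted p of 0.00717 to 0.0339. The main count of members called in that comparison was 1, beside 1100 of 12495 genes. With Xist above 50 CPM it was 2 (Id3, and Smad1 at -0.56, adjusted p 0.0232), beside 1616 of 13761. At or under 50 CPM, in 10 libraries, it was 0, beside 290 of 11967. That split was chosen after seeing the data. On the cystine diet the count was 0, and 1 with DESeq2 or with a sex term, where Id3 had an adjusted p of 0.0421; leaving out 1 library gave 0 to 1. The other counts of members did not move.

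The labels do not say that a replicate number marks one animal. Numbers were not taken as pairing because not every pair's correlation exceeded 0.1, a rule that does not show the libraries to be unpaired. If they are paired, the main p-values leave that out. The Xist class was the same in 14 of 14 same-numbered pairs of populations. Deviations from the group means of same-numbered libraries had correlations over 0.1 in 5 of 7 pairs of populations on control diet, where the lowest was 0.0895, and 2 of 7 on cystine, and in 2 and 4 of 7 pairs of diets in Lgr5-high and Lgr5-low cells; in none did every library correlate best with its own number. With the replicate block, Id3 averaged over diets was at -0.67 with an adjusted p of 0.0463, 1 member was called as before, and Id4 had an adjusted p of 0.130. The block called 409 genes of all between populations on control diet, against 225 without it.

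On control diet 225 genes differed between populations, against 410 with DESeq2, 450 with a sex term, 144 with no filter, 127 with only the groups compared, 674 in libraries with Xist above 50 CPM and 31 in those at or under it; leaving out 1 library gave 124 (Lgr5-high control replicate 5) to 456 (Lgr5-low control replicate 3), with 147 without Lgr5-high control replicate 4 and 139 and 146 without Lgr5-low control replicates 1 and 6. On cystine 330 differed, against 575 with DESeq2, 619 with a sex term, 225 with no filter and 108 with Xist at or under 50 CPM; leaving out 1 library gave 169 (Lgr5-low cystine replicate 7) to 413 (Lgr5-low control replicate 3), with 178 and 210 without Lgr5-high cystine replicates 2 and 7 and 190 without Lgr5-low cystine replicate 6. Averaged over diets 1100 did. For diet in Lgr5-high cells 21 were called, against 89 with DESeq2, 41 with a sex term, 37 with only the groups compared, 40 with Xist above 50 CPM, 33 at or under it and 0 without libraries under 5 M counts; leaving out 1 library gave 7 (Lgr5-high control replicate 4 or 7) to 41 (Lgr5-high cystine replicate 1), and 8 to 11 without Lgr5-high control 1, 3, 5 or 6 or cystine 2, 3, 6 or 7. For diet with populations averaged 20 were called, against 83 with DESeq2, 35 with a sex term, 57 with Xist at or under 50 CPM and 1 without libraries under 5 M counts, and 13 (Lgr5-high control replicate 4) to 54 (Lgr5-high cystine replicate 1) with 1 library left out, and 43 without Lgr5-low control replicate 7. In the 10 libraries with Xist at or under 50 CPM, Rgmb had an adjusted p of 0.512 on control diet and 0.133 on cystine, Tgif1 of 0.179 on cystine and 0.0543 averaged over diets, and Hes1 of 0.135 on control diet; with Xist above 50 CPM, Tgif1 on cystine had 0.0647. Of the values of members and named genes, 0 reversed after being called. Low counts limit Smad6, Smad7, Bmpr2 and Id4.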
